A study of Mus musculus with 6 samples.

Results

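The genes described here are 30 fatty acid oxidation genes, measured in whole kidneys of mice in which Nampt had been conditionally knocked out and of control mice. They are 18 genes whose products work in mitochondria, 6 whose products work in peroxisomes and 6 whose products work in both or elsewhere in the cell. They were chosen by gene name, with earlier results of these data known, and 38 array probes carry a RefSeq accession of one of them. All 38 probes were well above background on all 6 arrays, so all 30 genes are among the 15310 genes tested. The knockout group held 3 male C57BL/6J mice labelled as iNampt conditional knockouts, and the control group 3 male C57BL/6J mice labelled only as controls. Total RNA of each animal was hybridised to 1 single-colour Agilent array. The series title places Nampt in the renal proximal tubules, but the animals' age, the driver of the recombinase, the deleted exons and the alleles of the controls are not given in the sources used here.

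Fatty acids are the main fuel of the proximal tubule. Long-chain fatty acids are activated to acyl-CoA, carried across the mitochondrial membranes on carnitine and shortened in repeated rounds of dehydrogenation, hydration, a second dehydrogenation and thiolysis. Peroxisomes run a parallel pathway for very long chains. Electrons from the first step reach the respiratory chain through a flavoprotein in mitochondria, and the second dehydrogenation reduces NAD+, the cofactor whose salvage pathway is limited by Nampt. Many of the genes are targets of PPAR alpha, a nuclear receptor that binds fatty acids.

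All levels below are normalised log2 signals, that is, log2 of the processed spot intensity minus the 75th percentile of the same array, and differences are knockout minus control on that log2 scale. Levels of different genes come from different probes and are not compared. The summed levels of marker lists below add such levels on a linear scale, so the brightest probes weigh most in them. The scanner software counted 57.3% to 63.3% of the spots as well above background, by array, and 0 as saturated. Nampt itself was at 1.80, 1.5 and 1.53 in the knockouts, against 2.78, 2.59 and 2.65 in the controls (difference -1.06 ± 0.10, SE; limma adjusted p = 0.0432). All arrays lay on 1 slide, with knockout 1 and the 3 controls in the first row and knockouts 2 and 3 in the second. With slide row as a block Nampt was at -0.87 (limma adjusted p = 0.0734), and dropping any 1 array other than knockout 1 also left it short of the threshold (adjusted p 0.0731 to 0.181), as did quantile normalisation (adjusted p = 0.058) and the replicate number as a block (adjusted p = 0.0894). It passed in the other 9 of 17 settings. The animals are separate as the labels number them, and their number limits the precision. In whole kidneys, fewer cells of a type and less RNA per cell cannot be told apart.

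Of the 30 genes, 28 were lower on average in the knockouts, by small amounts, and none passed the test. The share of all genes tested with a difference below 0 was 52.9%. The median of the 30 differences was -0.12, beside -0.0077 over all genes tested. At an adjusted p of 0.05 by limma, 0 of the 30 genes passed, where 0.170% of all genes did. At an unadjusted p under 0.05, 4 were lower (Ehhadh, Acadm, Eci1 and Acot3), where 6.13% of all genes were lower by that rule, and 0 were higher, where 6.69% were. All 3 knockouts lay below all 3 controls for 6 genes (Ehhadh, Acadm, Acadvl, Acadl, Hadh and Acot3), where 10.5% of all genes did so. The reverse held for 0 members and for 9.05% of all genes. The differences were small as well as uncertain: for 26 of the 30 genes the 95% interval of the fit lay inside a 1.5-fold change in either direction. The intervals of Ehhadh, Acaa1b and Fabp1 reached a 1.5-fold fall and that of Pdk4 a 1.5-fold rise.

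**Figure D1:**
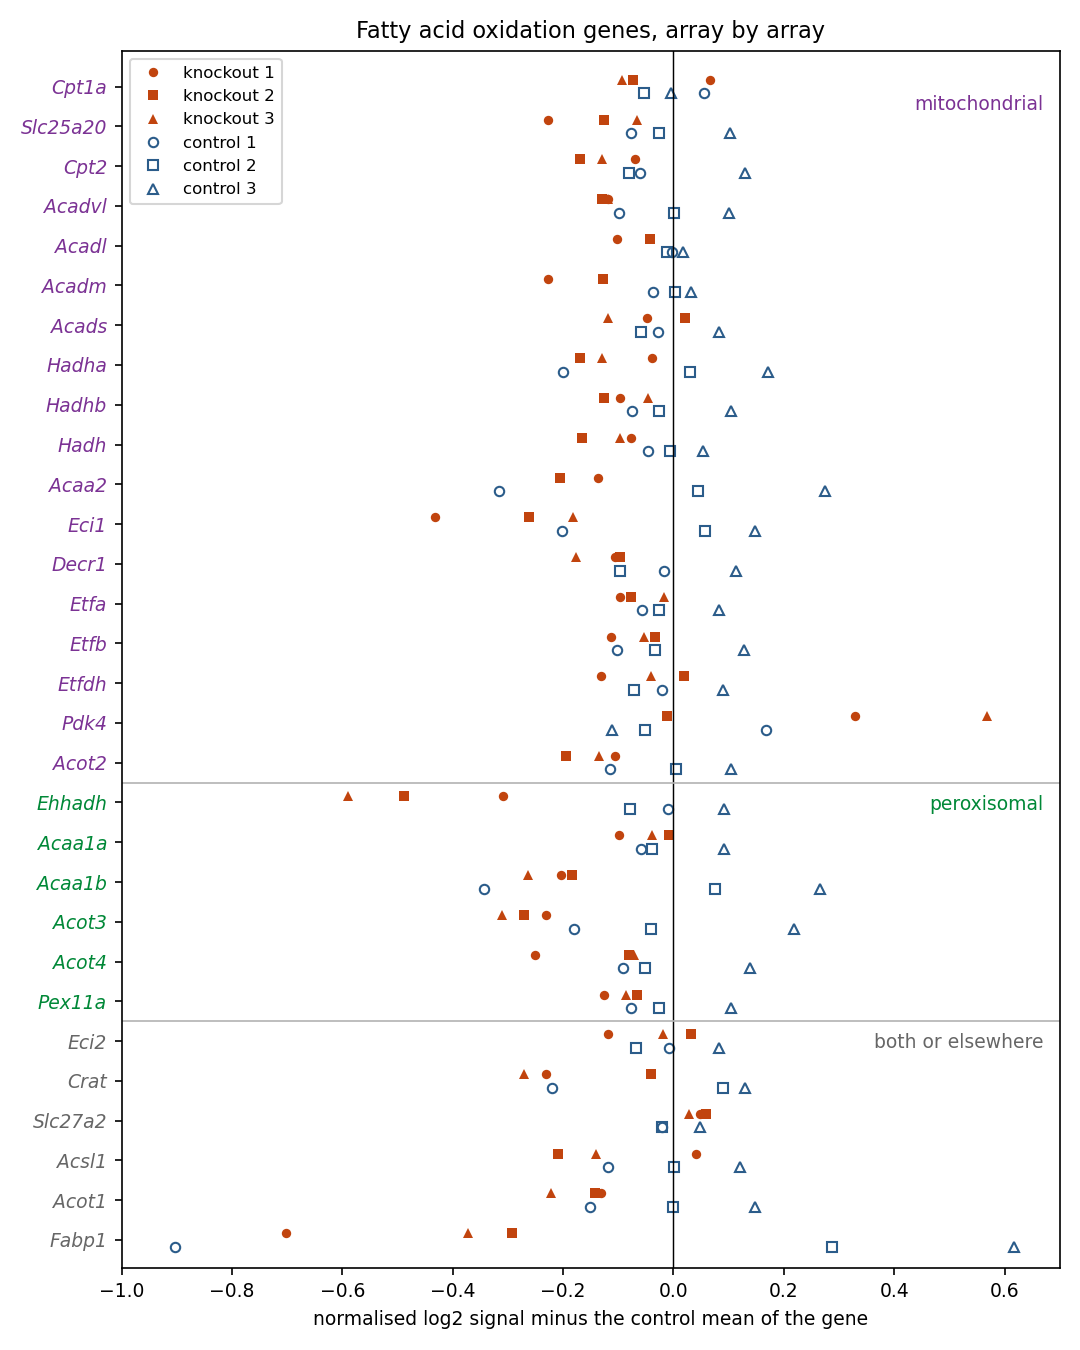
Normalised log2 signal of each of the 30 genes on each array, minus the control mean of that gene (filled, knockouts; open, controls; circle, square and triangle, animals 1, 2 and 3). Gene names run down the axis by compartment. Control 3, the open triangle, lies at the right of the controls for 28 of the 30 genes.

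The entry step into mitochondria is carried by Cpt1a, Slc25a20 and Cpt2. Cpt1a encodes the outer membrane carnitine palmitoyltransferase, the main point of control of the pathway. It was at 5.04, 4.90 and 4.88 in the knockouts, against 5.03, 4.92 and 4.97 in the controls, and the groups overlapped (difference -0.034 ± 0.063, SE; limma adjusted p = 0.866). Its other probe was at 0.036 ± 0.061, so the sign depended on the probe. Slc25a20, the carnitine-acylcarnitine carrier of the inner membrane, was at 1.07, 1.17 and 1.23 in the knockouts, against 1.22, 1.27 and 1.40 in the controls (-0.14 ± 0.07; adjusted p = 0.492). Knockout 3 lay just above control 1. Cpt2, which returns the acyl group to CoA on the matrix side, was at 5.40, 5.30 and 5.34 in the knockouts, against 5.41, 5.39 and 5.60 in the controls (-0.12 ± 0.07; adjusted p = 0.537), with control 3 well above the other arrays. The other probe of Cpt2 was at -0.12 ± 0.09.

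The acyl-CoA dehydrogenases, which open each round and differ in the chain length they take, were all lower on average. Acadvl, for very long chains, was at 6.53, 6.52 and 6.53 in the knockouts, against 6.55, 6.65 and 6.75 in the controls (-0.13 ± 0.06; adjusted p = 0.469). Its knockouts were nearly identical and lay just below control 1, while the controls spread over a wider range. Acadl, for long chains, was at 3.68, 3.74 and 3.74 in the knockouts, against 3.78, 3.77 and 3.80 in the controls (-0.063 ± 0.045; adjusted p = 0.630). The groups did not overlap, although the gap was small. Acadm, the medium-chain enzyme, was at 7.14, 7.24 and 7.24 in the knockouts, against 7.33, 7.37 and 7.40 in the controls. The groups did not overlap, and the difference was -0.16 ± 0.05 (SE; limma unadjusted p = 0.0207, adjusted p = 0.304), a ratio of 0.894. Acads, the short-chain enzyme, was at 2.74, 2.81 and 2.67 in the knockouts, against 2.76, 2.73 and 2.87 in the controls (-0.047 ± 0.063; adjusted p = 0.811), with full overlap.

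The later steps of the mitochondrial round also gave small differences. Hadha and Hadhb encode the subunits of the trifunctional protein, which carries out the steps after the first for long chains. Hadha was at 1.82, 1.69 and 1.73 in the knockouts, against 1.66, 1.89 and 2.03 in the controls (-0.11 ± 0.10; adjusted p = 0.705), and Hadhb at 5.36, 5.33 and 5.41, against 5.38, 5.43 and 5.56 in the controls (-0.088 ± 0.063; adjusted p = 0.626). Both pairs of groups overlapped. Hadh, the NAD-dependent dehydrogenase of shorter chains, was at 5.63, 5.54 and 5.61 in the knockouts, against 5.66, 5.70 and 5.76 in the controls (-0.11 ± 0.05; adjusted p = 0.439), with no overlap. Acaa2 encodes the mitochondrial thiolase that ends the round. It was at 7.31, 7.24 and 7.24 in the knockouts, against 7.13, 7.49 and 7.72 in the controls (-0.18 ± 0.15; adjusted p = 0.675). The 3 controls of Acaa2 spanned the knockouts, with control 1 below all of them and controls 2 and 3 above. Its probe is printed 10 times on each array, and the SD over those spots was 0.035 to 0.046 on any array, so the spread between the controls (SD 0.30, n = 3) was larger than the spread between spots.

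Auxiliary enzymes handle unsaturated fatty acids. Eci1, a mitochondrial enoyl-CoA isomerase that moves double bonds, was at 5.15, 5.32 and 5.40 in the knockouts, against 5.38, 5.64 and 5.73 in the controls. Only knockout 3 and control 1 crossed. Its difference was the largest among the mitochondrial members that were lower, at -0.29 ± 0.11 (SE; limma unadjusted p = 0.0434, adjusted p = 0.372), a ratio of 0.817. Decr1, the dienoyl-CoA reductase, was at 6.50, 6.51 and 6.43 in the knockouts, against 6.59, 6.51 and 6.72 in the controls (-0.13 ± 0.07; adjusted p = 0.517), and its other probe was at -0.08 ± 0.06. The electron transfer genes, which pass electrons from the dehydrogenases to the respiratory chain, had differences of under 0.1 in either direction. Etfa was at 6.28, 6.30 and 6.36 in the knockouts, against 6.32, 6.35 and 6.46 in the controls (-0.062 ± 0.058), and its other probe was at 0.091 ± 0.075. Etfb was at 7.61, 7.69 and 7.67 in the knockouts, against 7.62, 7.69 and 7.85 in the controls (-0.068 ± 0.071), and its other probes were at -0.084 ± 0.074 and -0.035 ± 0.091. Etfdh, the membrane dehydrogenase that takes electrons from the flavoprotein, was at 4.99, 5.14 and 5.08 in the knockouts, against 5.10, 5.05 and 5.21 in the controls (-0.051 ± 0.065). The groups overlapped for all 3 genes, with adjusted p from 0.716 to 0.803.

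Pdk4 stood apart from the other mitochondrial members. It encodes a kinase that inhibits pyruvate dehydrogenase and so spares glucose when fatty acids are burnt. Pdk4 was at 1.38, 1.04 and 1.62 in the knockouts, against 1.22, 1.0 and 0.94 in the controls. Knockouts 1 and 3 were high and knockout 2 lay among the controls, and the difference of 0.295 ± 0.16 did not pass (SE; limma adjusted p = 0.517). Knockout 3, the array highest in Pdk4, was also the highest in the summed fat cell markers and in Cidea, a brown fat gene (3.31 there and -2.25 and -1.99 in the other knockouts). The 6 fat cell markers tested out of 7 were summed on a linear scale relative to the array's 75th percentile, and Cfd and Fabp4 were the brightest. The sum ran from 18.6 to 55.3 in the knockouts, with knockout 3 at the top, and from 32.3 to 53.6 in the controls. Knockout 1, next in Pdk4 at 1.38, had a sum of 25.0. Control 1, with a sum of 53.6, had Pdk4 at 1.22, and control 3, with 43.3, had the lowest Pdk4, at 0.94. Of the 4 brown fat markers, Ucp1 was well above background on 4 arrays but on the whole of neither group, Elovl3 on none, and the summed level of the 2 tested was 0.799 to 10.5 in the knockouts and 0.688 to 1.99 in the controls. Lep was not above background on any array. Their part in the level of Pdk4 was not tested.

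**Figure D2:**
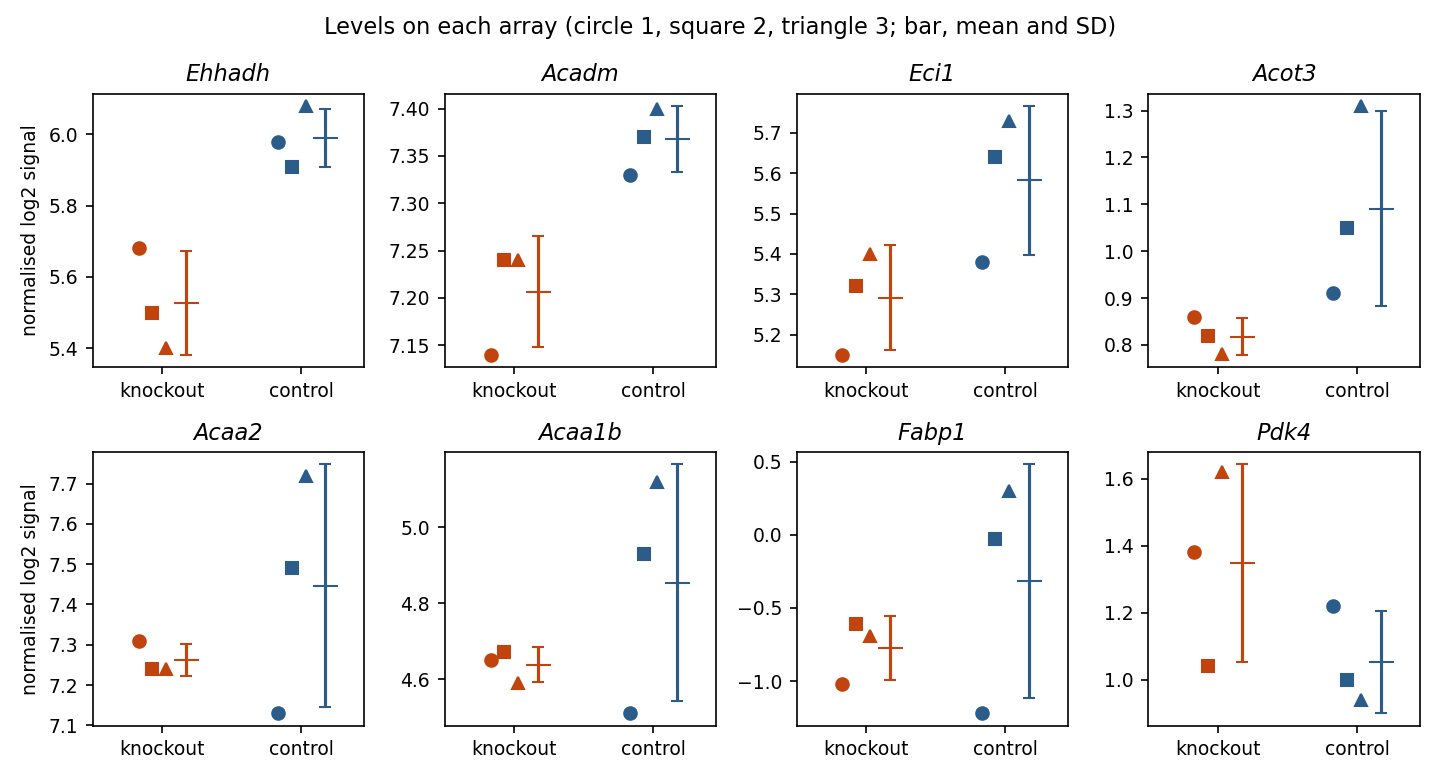
Normalised log2 signal of 8 of the genes on each array, with the mean and SD of each group (n = 3). Each panel has its own scale; the lowest control of Ehhadh, at 5.91, lies above the highest knockout, at 5.68, whereas in Acaa2, Acaa1b and Fabp1 control 1 lies below all 3 knockouts.

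The peroxisomal members were all lower on average, and Ehhadh led them. Ehhadh encodes the peroxisomal bifunctional enzyme, whose second activity uses NAD+ as the trifunctional protein's does in mitochondria. It was at 5.68, 5.50 and 5.40 in the knockouts, against 5.98, 5.91 and 6.08 in the controls. All knockouts lay well below all controls, and the difference of -0.46 ± 0.09 (SE; 95% interval -0.68 to -0.25) was the largest of the 30, a ratio of 0.726, with only Fabp1 near it in size. It had the smallest p of the members (limma unadjusted p = 0.00199), and over the whole array its adjusted p was 0.159. Over 17 other settings its difference ran from -0.54 to -0.31 and its adjusted p from 0.0758 to 0.394. The value of -0.31 is that of knockout 1 alone against the controls beside it in the first slide row.

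Acaa1a and Acaa1b encode peroxisomal thiolases and are near-identical copies, so a probe may take signal from both. Acaa1a was at 6.69, 6.78 and 6.75 in the knockouts, against 6.73, 6.75 and 6.88 in the controls (-0.047 ± 0.061; limma adjusted p = 0.808). Acaa1b was at 4.65, 4.67 and 4.59 in the knockouts, against 4.51, 4.93 and 5.12 in the controls (-0.22 ± 0.15; adjusted p = 0.630). As with Acaa2, the knockouts of Acaa1b lay close together while control 1 was below them and controls 2 and 3 above. Pex11a, which takes part in peroxisome division, was at 4.39, 4.45 and 4.43 in the knockouts, against 4.44, 4.49 and 4.62 in the controls (-0.090 ± 0.062; adjusted p = 0.613). Its probe is also printed 10 times per array, with an SD over spots of 0.039 to 0.049.

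The acyl-CoA thioesterases among the members, which release free fatty acids from CoA, are related neighbouring genes on chromosome 12, the chromosome of Nampt. Their probes may share signal, which was not checked by sequence. Acot3, a peroxisomal member, was at 0.86, 0.82 and 0.78 in the knockouts, against 0.91, 1.05 and 1.31 in the controls. The groups did not overlap, though control 1 lay close to the knockouts, and the difference was -0.27 ± 0.11 (SE; limma unadjusted p = 0.0442, adjusted p = 0.375). The second probe of Acot3 was at -1.69, -1.77 and -1.89 in the knockouts, against -1.59, -1.45 and -1.27 in the controls, also without overlap (-0.35 ± 0.10). Acot4, also peroxisomal, was at 2.42, 2.59 and 2.60 in the knockouts, against 2.58, 2.62 and 2.81 in the controls (-0.14 ± 0.08; adjusted p = 0.579). The mitochondrial Acot2 was at -0.26, -0.35 and -0.29 in the knockouts, against -0.27, -0.15 and -0.05 in the controls (-0.14 ± 0.07; adjusted p = 0.466). The cytosolic Acot1 was at 4.75, 4.74 and 4.66 in the knockouts, against 4.73, 4.88 and 5.03 in the controls (-0.17 ± 0.09; adjusted p = 0.487). In all 4 genes control 1 was the lowest control and control 3 the highest.

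The remaining members act in several places or outside both organelles. Fabp1, the liver-type fatty acid binding protein of the cytosol, varied most between control animals. It was at -1.02, -0.61 and -0.69 in the knockouts, against -1.22, -0.03 and 0.30 in the controls, so that control 1 lay below every knockout (-0.46 ± 0.39; limma adjusted p = 0.693). Crat, the carnitine acetyltransferase, was at -0.82, -0.63 and -0.86 in the knockouts, against -0.81, -0.50 and -0.46 in the controls (-0.18 ± 0.11; adjusted p = 0.584), with control 1 again among the knockouts. Acsl1, which activates long-chain fatty acids, was at 5.37, 5.12 and 5.19 in the knockouts, against 5.21, 5.33 and 5.45 in the controls (-0.10 ± 0.09), and its other probe was at -0.15 ± 0.10. Eci2, an enoyl-CoA isomerase of both organelles, was at 5.40, 5.55 and 5.50 in the knockouts, against 5.51, 5.45 and 5.60 in the controls (-0.034 ± 0.064). Slc27a2, which takes up and activates very long-chain fatty acids, was the other gene with a positive difference. It was at 8.39, 8.40 and 8.37 in the knockouts, against 8.32, 8.32 and 8.39 in the controls (0.045 ± 0.046; adjusted p = 0.749), and control 3 lay among the knockouts.

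**Figure D3:**
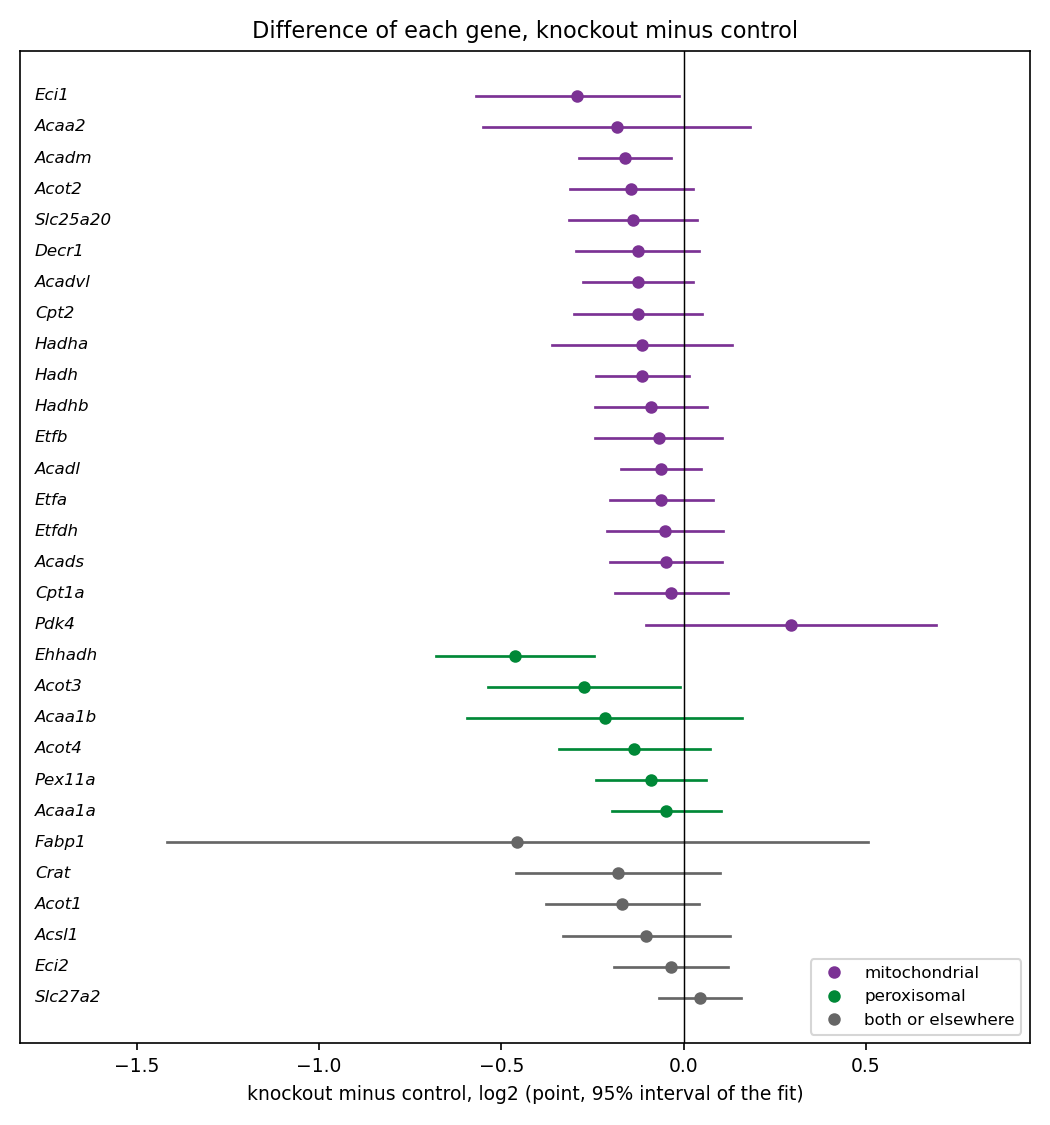
Difference of each of the 30 genes, knockout minus control on the log2 scale, with the 95% interval of the fit, sorted within each compartment. The intervals of Ehhadh, Acadm, Eci1 and Acot3 lie below 0, without adjustment for the number of genes tested.

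Mitochondrial and peroxisomal members were then set side by side on each array, as the median over each class of the signal minus the control mean of the gene. The mitochondrial median was -0.11, -0.12 and -0.11 in knockouts 1, 2 and 3, against -0.057, -0.027 and 0.10 in controls 1, 2 and 3. The peroxisomal median was -0.22, -0.13 and -0.18 in the knockouts, against -0.083, -0.038 and 0.12 in the controls. In both classes every knockout lay below every control. The median over all genes tested was -0.014, -0.0014 and -0.0083 in the knockouts, against -0.017, -0.014 and 0.030 in the controls. The peroxisomal minus the mitochondrial median was -0.11, -0.0056 and -0.069 in the knockouts, against -0.026, -0.011 and 0.019 in the controls. Knockout 2 lay among the controls in this gap, and knockouts 1 and 3 below them. The difference between the groups in that gap was -0.056, beside a spread of 0.041 between animals of a group (pooled SD, n = 3 each), and it was -0.0068 without Ehhadh, an alternative chosen after seeing the data. With Eci2, Crat and Slc27a2 counted as peroxisomal it was 0.0059, on the other side of 0. It was -0.0079 without control 3, -0.031 without knockout 1, -0.084 without knockout 2 and -0.13 without control 1.

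**Figure D4:**
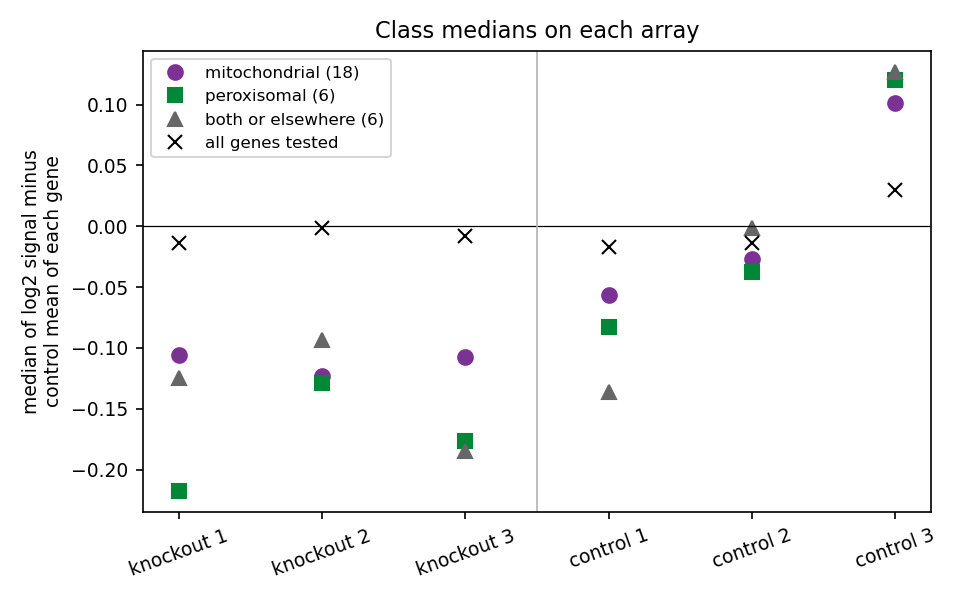
Median over each class of the normalised log2 signal minus the control mean of each gene, on each array. In the mitochondrial and peroxisomal classes all knockouts lie below all controls, and in the genes of both or elsewhere control 1, at -0.14, lies among the knockouts; the classes are at 0.10 to 0.13 in control 3.

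The control animals differed among themselves in these genes. Control 3 was the highest control for 28 of the 30 members (93.3%), where it was for 49.3% of all genes tested. Control 1 was the lowest for 21 members (70%), where it was for 40.6% of all genes. The median SD over the members was 0.051 within the knockouts and 0.104 within the controls, beside 0.077 and 0.089 over all genes tested. With control 1 left out, an alternative chosen after seeing the data, the knockouts lay below both other controls for 19 members (63.3%), where 18.9% of all genes did. With control 3 left out the same held for 6 members (20%), where 13.5% of all genes did. The count of members lower at an unadjusted p under 0.05 was 12 without control 1, 1 without control 2, 1 without control 3, 1 without knockout 1, 2 without knockout 2 and 3 without knockout 3. By the same rule 6.55% of all genes were lower without control 1, and 4.27% to 6.21% in the other fits that left out an array. The difference between the groups in the median over all members was -0.12, and it was -0.063 without control 3. For the mitochondrial members it was -0.12, and -0.062 without control 3, and for the peroxisomal members -0.17, with -0.27 without control 1 and -0.070 without control 3.

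Markers of the convoluted proximal tubule also set control 3 apart. The median of these 10 genes was -0.050, -0.0014 and -0.064 in the knockouts, against -0.12, -0.025 and 0.14 in the controls, and their summed level on a linear scale was 1032 to 1080 in the knockouts and 1015 to 1163 in the controls. By limma 0 of the 10 passed. At an unadjusted p under 0.05, 0 were lower or higher, where 6.13% and 6.69% of all genes were. Of 10 markers of the straight segment, 3 were lower and 1 higher at an unadjusted p under 0.05, beside the same 6.13% and 6.69% of all genes. Rnf24 was the 1 that passed over all genes (-1.04; limma adjusted p = 0.0432), and Cyp7b1 was the 1 higher (0.17; adjusted p = 0.251). The median of the straight segment markers was -0.11, -0.038 and -0.070 in the knockouts, against 0.033, -0.067 and -0.019 in the controls. Here control 1, and not control 3, was the highest control. The summed level of these markers was 555 to 561 in the knockouts, and 596, 535 and 546 in controls 1, 2 and 3. The 6 markers of tubular injury were higher in the knockouts at an unadjusted p under 0.05, where 6.69% of all genes were. None of the 6 passed over all genes. Their summed level was 4.68 to 8.59 in the knockouts and 2.42 to 3.64 in the controls. The summed level of 6 macrophage markers, of which Csf1r was much the brightest, was 35.2 to 39.6 in the knockouts and 28.5 to 32.2 in the controls. That of the 3 neutrophil markers tested out of 4 was 0.791 to 2.20 in the knockouts and 5.35 to 7.29 in the controls. All 4 markers of the distal convoluted tubule had differences below 0, where 52.9% of all genes did, and 0 had an unadjusted p under 0.05. Their summed level was 19.4 to 25.7 in the knockouts and 26.5 to 31.8 in the controls. The 3 red cell markers tested out of 4 had a median difference of -0.72, with 0 at an unadjusted p under 0.05 and a summed level of 93.0 to 206 in the knockouts and 181 to 242 in the controls. The part of these markers in the differences of the fatty acid oxidation genes was not tested.

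Within the first slide row, knockout 1 could be set against the 3 controls beside it. There 26 of the 30 members (86.7%) were below the control mean, with a median of -0.11, where 53.9% of all genes were, with a median of -0.014. Knockout 1 lay below all 3 controls for 18 members (60.0%), where it did for 30.7% of all genes. With slide row as a block 3 members (10%) were lower at an unadjusted p under 0.05, where 5.22% of all genes were, and the peroxisomal and mitochondrial medians lay at -0.22 and -0.11. That block rests on knockout 1 alone against the controls.

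The stretches just before the transcription start were read as sequence. RefSeq promoters of GRCm38.p6 were found for 27 of the 30 members, 29 promoters in all. They were searched on both strands, over the 250 bases before the start, for a direct repeat of the kind PPAR alpha binds and for AAGGTCA, the core bound by estrogen-related receptors, which shares letters with each arm of that repeat. The strict repeat AGGTCANAGGTCA was in none of the 29 and in 0.0335% of 32851 promoters. The relaxed form AGGNCANAGGNCA was in the promoter of Fabp1 alone among the members, and in 0.338% of all promoters. The core AAGGTCA was in those of Acadm, Slc27a2 and Acot4, and in 4.08% of all promoters. The promoters below are shown because they belong to the member with the largest difference (Ehhadh), the member with the relaxed repeat and the widest spread between controls (Fabp1), and a pair with the same core but differences of opposite sign (Acadm and Slc27a2). Capitals mark the relaxed repeat in Fabp1, the core in Acadm and Slc27a2, and, in Ehhadh, which held neither, the CCAAT box, found in 33.8% of all promoters, which reads ATTGG on this strand.
Ehhadh, chr16:21787835-21788084, minus strand: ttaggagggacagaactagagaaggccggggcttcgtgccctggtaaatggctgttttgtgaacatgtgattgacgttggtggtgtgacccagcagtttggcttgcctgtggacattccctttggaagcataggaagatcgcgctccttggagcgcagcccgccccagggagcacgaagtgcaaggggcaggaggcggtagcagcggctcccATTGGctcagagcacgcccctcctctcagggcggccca
Fabp1, chr6:71199629-71199878, plus strand: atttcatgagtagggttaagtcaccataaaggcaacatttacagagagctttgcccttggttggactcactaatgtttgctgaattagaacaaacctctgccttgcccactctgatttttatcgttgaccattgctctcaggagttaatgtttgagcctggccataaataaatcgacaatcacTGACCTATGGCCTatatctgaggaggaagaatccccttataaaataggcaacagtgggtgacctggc
Acadm, chr3:153944644-153944893, minus strand: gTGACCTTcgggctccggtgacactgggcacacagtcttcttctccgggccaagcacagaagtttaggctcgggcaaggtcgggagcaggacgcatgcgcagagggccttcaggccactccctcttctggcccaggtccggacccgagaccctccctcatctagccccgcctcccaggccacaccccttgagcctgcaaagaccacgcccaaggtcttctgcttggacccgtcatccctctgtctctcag
Slc27a2, chr2:126552774-126553023, plus strand: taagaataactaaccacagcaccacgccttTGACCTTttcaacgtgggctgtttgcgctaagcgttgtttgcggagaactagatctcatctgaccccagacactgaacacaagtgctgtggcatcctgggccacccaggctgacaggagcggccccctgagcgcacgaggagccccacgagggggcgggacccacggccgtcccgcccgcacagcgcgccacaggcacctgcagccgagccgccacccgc
A match is a description of these letters, and the array data do not bear on whether any factor was bound there.

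Other genes of the same pathways were examined through lists of related genes, and 0 genes of these 7 lists passed an adjusted p of 0.05 by limma. Of all genes tested 0.170% passed, and at an unadjusted p under 0.05 the share lower was 6.13% and the share higher 6.69%. Of 19 other mitochondrial fatty acid enzymes, 1 was higher and 1 lower at an unadjusted p under 0.05, with a median difference of -0.039. The lower was Acacb (-0.31 ± 0.11, adjusted p = 0.341), which makes the malonyl-CoA that inhibits Cpt1a. The higher was Cpt1c (0.38 ± 0.15, adjusted p = 0.376), a brain-type relative of Cpt1a. Its signal was low, at -3.35, -3.42 and -3.33 in the knockouts, against -3.56, -3.58 and -4.09 in the controls. Control 3 lay well below the other controls of Cpt1c, and over 17 other settings the difference ran from 0.17 to 0.47. The carnitine transporter Slc22a5 was at -0.15 ± 0.08 (adjusted p = 0.468). Of 22 other peroxisomal enzymes tested out of 23, Acox3 was higher (0.15 ± 0.06, adjusted p = 0.363) and Acot5 lower (-0.23 ± 0.09, adjusted p = 0.372) by that rule, and the median was -0.033. Hacl1, of alpha-oxidation, was at -0.21 ± 0.09 (adjusted p = 0.401). All knockouts lay below all controls for 3 of these 19 mitochondrial and 5 of these 22 peroxisomal enzymes. Of all genes tested 10.5% did so. The reverse held for 1 gene of each list and for 9.05% of all genes.

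Peroxins, which build the organelle and import its enzymes, had a median of -0.0047 over 16 genes. At an unadjusted p under 0.05, 0 were lower or higher, where 6.13% and 6.69% of all genes were. Pex10 was at -0.17 ± 0.11 and Pex11g at 0.074 ± 0.048 (adjusted p = 0.579 and 0.594). The list of activation, uptake and binding had a median of -0.0088 over 18 genes tested out of 19, with Acsm1, a medium-chain acyl-CoA synthetase, as the 1 lower by that rule (-0.18 ± 0.06, adjusted p = 0.334). Its relative Acsm2 was at 0.12 ± 0.05 (adjusted p = 0.391) and Slc27a5 at 0.37 ± 0.19 (adjusted p = 0.477). Among the 5 ketone body enzymes the median was -0.015. Bdh1 was at 0.12 ± 0.07 and Oxct1 at -0.055 ± 0.063 (adjusted p = 0.585 and 0.777).

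Regulators had a median of 0.056 over 20 genes, opposite in sign to that of the members. The list median on each array was 0.0026, -0.0054 and 0.0235 in the knockouts, against -0.026, -0.030 and 0.038 in the controls. Control 3 thus lay above every knockout. At an unadjusted p under 0.05, 2 were higher and 0 lower, where 6.69% and 6.13% of all genes were. Ppara, which encodes PPAR alpha, was at 4.15, 4.28 and 4.28 in the knockouts, against 3.82, 3.89 and 4.10 in the controls, all knockouts above all controls (0.30 ± 0.09; limma adjusted p = 0.277). Esrrg, an estrogen-related receptor, was at 1.79, 1.71 and 1.87 in the knockouts, against 1.57, 1.51 and 1.59 in the controls (0.23 ± 0.06; adjusted p = 0.236). Ppara has 3 probes on the array and Esrrg 2, and only the brightest of each is given. Ppargc1a, the coactivator of mitochondrial genes, was at 0.14 ± 0.09 (adjusted p = 0.597), and Sirt6, the deacetylase named in the series title, at -0.11 ± 0.04 (adjusted p = 0.401).

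The other PPAR alpha targets had the largest shift of the 7 lists, with a median of -0.27 over 18 genes tested out of 19. At an unadjusted p under 0.05, 5 were lower and 1 higher, where 6.13% and 6.69% of all genes were. The omega-hydroxylase genes Cyp4a10, Cyp4a31 and Cyp4a32, all among those lower, are near-identical copies. Their probes may share signal, so they may not count as separate genes. The other Cyp4a genes of the list, also on chromosome 4, were lower on average too. The list median thus rests in part on that gene family. Cyp4a10 was at 6.28, 6.03 and 6.01 in the knockouts, against 6.50, 6.79 and 6.82 in the controls (-0.60 ± 0.12; limma adjusted p = 0.164). Cyp4a31 was at -0.59 ± 0.12 (adjusted p = 0.187) and Cyp4a32 at -0.73 ± 0.16 (adjusted p = 0.206). Cyp4a14, Mgll and Angptl4 were chosen after their values were seen. Cyp4a14 was at 4.06, 3.92 and 3.78 in the knockouts, against 4.12, 6.07 and 6.20 in the controls (-1.55 ± 0.55; adjusted p = 0.344), and it ran from -2.22 to -1.18 over 17 other settings. It passed in 1 of them, without control 1, the control that lay near the knockouts (adjusted p = 0.0152), and its adjusted p reached 0.669 with slide row as a block. Mgll, a monoacylglycerol lipase, was at -0.26 ± 0.10 (adjusted p = 0.359). Angptl4, a secreted inhibitor of lipoprotein lipase, was the 1 higher, at 4.83, 5.10 and 5.13 in the knockouts, against 4.38, 4.70 and 4.73 in the controls (0.42 ± 0.13; adjusted p = 0.281). The list median on each array was -0.38, -0.21 and -0.21 in the knockouts, against -0.22, 0.080 and 0.17 in the controls, so that control 1 lay within the range of the knockouts.

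**Figure D5:**
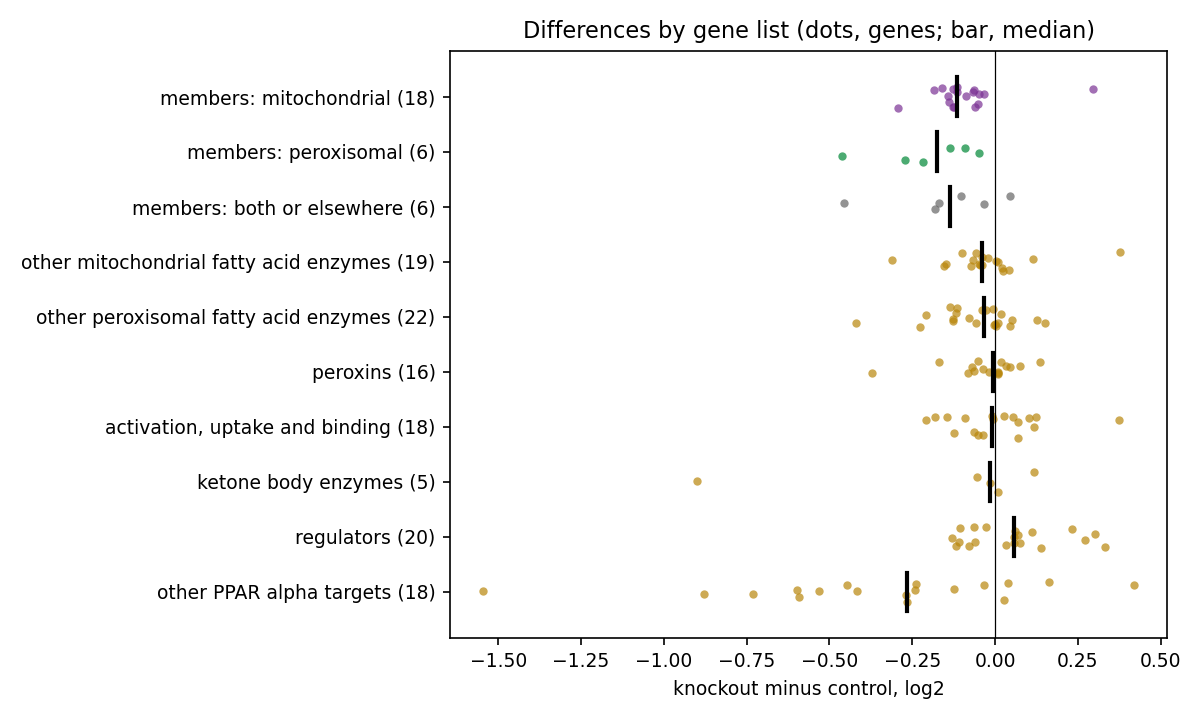
Differences, knockout minus control on the log2 scale, of the members by compartment and of the 7 lists of related genes, with the number of genes tested in brackets. Dots are genes and black bars medians, which run from -0.27 for the other PPAR alpha targets to 0.056 for the regulators.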

How the data were processed

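Spot intensity on a linear scale was extracted by the authors with Agilent Feature Extraction 10.7.1.1 and background-subtracted within each array, per the file headers. The scanner software's marks of dim, saturated and outlier spots were taken over. The authors' deposited table of values is on a linear scale, a ratio of each signal to a constant of its array (within 1% for nearly all bright probes), and served as an alternative.

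Outlier spots were left out, log2 signals of a probe averaged and each array's 75th percentile subtracted. A probe entered the fit if it was above background, by those marks, in every animal of the knockout or of the control group. Accessions were matched to the RefSeq table of GRCm38.p6, used for names, chromosomes and promoters. The array's own positions are on mm9, per the file headers. The probe of highest mean stood for a gene. Other probes were fitted separately and are given for the members only. Groups were compared by limma 3.58.1 in R 4.3.3, with Benjamini-Hochberg adjustment at 0.05 over 15310 genes. Tables and plots were made in Python 3.11.15. With 3 against 3 animals an exact test cannot go below p = 0.1. Class medians were not tested. On simulated data of this comparison (15307 genes), the test recovered 64.1% of the changes of 1.5-fold and 83.3% of those of 2-fold. Each of the 20 runs changed 200 genes, with noise independent between genes and no shared differences between arrays. Changes under 1.5-fold were not simulated.

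Members and lists were chosen with earlier results of these data known. All members are named. Of each pathway list the 3 genes of smallest p are, with Nampt, Ppara, Ppargc1a and Sirt6, except that some genes the rule names are not reported here. Alternatives concerned normalisation, background, filter, probes, variance, array weights, the replicate number, slide row, each array left out, compartments and means. Normexp used median spot signals. The labels do not state that replicate numbers pair the animals, and the main fit did not pair them.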

Additional observations from a re-analysis of the deposited data

How the results depend on the processing

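None of the 30 members passed an adjusted p of 0.05 under any of 17 settings, and 25 kept their sign in all of them. The class medians stayed below 0 in every setting. Genes passing over the whole array numbered 26 in the main analysis, 11 with quantile normalisation, 77 with no filter on dim probes, 57 with a trended and robust variance, 89 with array weights, 16 with slide row as a block and from 0 to 57 with 1 array left out. With the replicate number as a block 0 genes passed. The deviations of same-numbered animals correlated at 0.104, -0.0962 and -0.0253, and not every animal correlated best with its own number. With 3 animals per group these values cannot show whether the numbers pair the animals, and the labels state no pairing. Members lower at an unadjusted p under 0.05 numbered 4 in the main analysis, 2 with no filter (6.67%, where 3.93% of all genes were) and 1 to 12 with 1 array left out (3.33% to 40%, where 4.27% to 6.55% of all genes were), and those higher 0 to 1 (4.72% to 7.58% of all genes). Members whose groups did not overlap numbered 11 with quantile normalisation (36.7%, where 11.9% of all genes did not) and 6 in the main analysis. With 1 array left out the peroxisomal difference ran from -0.27 to -0.07 and the gap between compartments from -0.13 to -0.0079. That gap was -0.11 with slide row as a block, -0.11 with means, 0.0059 with the wider peroxisomal class and -0.0068 without Ehhadh, chosen after seeing the data. Signs turned for Cpt1a (0.00080) and Etfa (0.0146) with the mean of probes, Eci2 (0.0133) with array weights, and Cpt1a (0.0667) and Acsl1 (0.0428) with slide row as a block. With 1 array left out Eci2 ran from -0.0680 to 0.0071 and Acaa1a from -0.0760 to 0.0011. The cause of these changes was not tested.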
